A study of Mus musculus with 8 samples.

Results

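The genes described here encode the nuclear subunits of the mitochondrial respiratory chain and ATP synthase, as measured in dopaminergic neurons of the embryonic mouse midbrain. The rule that chose them uses gene symbols alone, those of complexes I to V and cytochrome c in the annotated array table, but the group was picked for description with earlier results of these data known. The symbols found 85 genes of 24012 named genes on the array. Of these, 36 carry symbols of complex I (NADH dehydrogenase), 4 of complex II (succinate dehydrogenase) and 8 of complex III (cytochrome bc1). A further 1 is cytochrome c (Cycs), 19 carry symbols of complex IV (cytochrome c oxidase) and 17 carry symbols of complex V (ATP synthase). The symbols caught 3 genes that are no subunits: Atp5s and Atp5sl, which RefSeq now lists as Dmac2l and Dmac2, and Cox4nb, now Emc8, a part of a membrane protein complex of the endoplasmic reticulum.

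Complexes I to IV pass electrons from NADH and succinate to oxygen. Complexes I, III and IV pump protons across the inner mitochondrial membrane, and complex V uses the proton gradient to make ATP. Nearly all subunits of complexes I to V are encoded in the nucleus. A small set that holds much of the catalytic core is encoded in mitochondrial DNA. Midbrain dopaminergic neurons have long been studied for their dependence on this chain, since toxins that block complex I damage them.

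Each sample was a pool of Gfp-positive cells sorted from papain-dissociated ventral midbrain of Pitx3(gfp/+) embryos at stage E14.5, in which Gfp stands at the locus of the dopaminergic transcription factor gene Pitx3. The embryos of every group, the reference included, carried this allele beside 1 other Pitx3 allele. The study had 4 pools of rostral and 4 of caudal tissue, with 5 to 7 embryos of interleaved litters in each, and the reference was pooled from Gfp-negative cells of the same specimens. On every array the sorted pool carried Cy3 and the reference Cy5, so a dye effect that differs between probes cannot be told apart from a difference between Gfp-positive and Gfp-negative cells. It cancels in the difference of rostral and caudal pools.

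The sorted cells carried the markers of their label. Of 10 midbrain dopaminergic markers, 9 were higher in the Gfp-positive pools than in the reference, with a median log2 ratio of 3.88, led by Slc6a3 (5.98), Aldh1a1 (5.63) and Nr4a2 (5.26). Every one of 12 cell cycle genes, 8 tested progenitor and radial glia markers and 9 erythroid markers was lower in the Gfp-positive pools, with median log2 ratios of -2.03, -3.14 and -3.70. The lists led with Cdc20 (-2.97), Ccna2 (-2.81) and Bub1 (-2.51), with Fabp7 (-4.86), Slc1a3 (-4.16) and Hes5 (-3.38), and with Hba-a2 (-5.64), Alas2 (-4.27) and Hbb-b1 (-4.24). Of the pericyte and mesenchyme markers 5 of 6 were lower (median -3.07), and of endothelial markers 4 of 5. Of GABAergic markers 5 of 7 were lower and of glutamatergic markers 3 of 4. None of 6 microglial markers was called (-0.31 to 0.28), but their pools spread widely. The summed microglial signal was 14300 to 52000 in rostral and 16300 to 51500 in caudal pools, against 23100 to 26200 in the reference. The other tested glutamatergic marker, the vesicular glutamate transporter gene Slc17a6, was higher in the Gfp-positive pools (0.67). Rostral pool 2 stood apart in the 3 collagen genes of the mesenchyme list. Its log2 ratio was 3.73 for Col1a1, against -1.95 to -0.93 in the other rostral pools, 0.10 for Col1a2, against -4.31 to -3.08, and -0.24 for Col3a1, against -4.04 to -2.78. Markers of dividing, progenitor, blood and vascular cells were thus higher in the reference, and in bulk RNA a lower share of a cell type and less RNA per cell cannot be told apart. The part of these cells in the ratios given below was not tested.

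Most respiratory chain genes were slightly lower in the sorted dopaminergic neurons than in the Gfp-negative reference. Of the 82 members with a probe above background on enough arrays to be tested, 54 were lower in the Gfp-positive pools, 5 were higher and 23 were not called by limma at a Benjamini-Hochberg adjusted p under 0.05. Among all 18130 genes tested, 35.9% were lower and 34.2% were higher (70.1% called in all), against 65.9% and 6.1% of the members. The median log2 ratio of the members was -0.21, with an interquartile range from -0.42 to -0.04, while the median of all genes was 0.00 and their interquartile range ran from -0.36 to 0.29. The falls were small: members called lower were 1.05-fold to 2.73-fold lower, and only Cox4i2 and Atp5b reached a 2-fold difference. Each slide row held arrays of both regions. On the arrays of row 1, 49 members were lower and 2 higher, beside 28% and 25.3% of all genes. On those of row 2, 50 were lower and 1 higher, beside 28.7% and 25.7% of all genes. Without rostral pool 2, in which the collagen genes were high, 53 were lower and 3 higher, beside 34.7% and 32.7% of all genes. The untested members were Cox7b2, Cox8b and Cox8c, isoforms known from testis or muscle. None of them was well above background in the reference on any array, and in the sorted channel Cox7b2 was so in 2 rostral and 1 caudal pool, Cox8b in 0 rostral and 1 caudal pool, and Cox8c in no pool.

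The pools resembled each other in this. The median over the 82 tested members was -0.28, -0.21, -0.26 and -0.21 in the rostral pools and -0.20, -0.16, -0.22 and -0.27 in the caudal pools. Between 64 and 76 members lay below 0 in a rostral pool and between 56 and 69 in a caudal pool, whereas 50% to 51.8% of all genes did. All 8 ratios were below 0 for 49 members (59.8%), against 27.1% of all genes tested, and all 8 were above 0 for 2 members (2.44%), against 23.9% of all genes. The plot of members by complex shows the same shift in both regions.

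**Figure D1:**
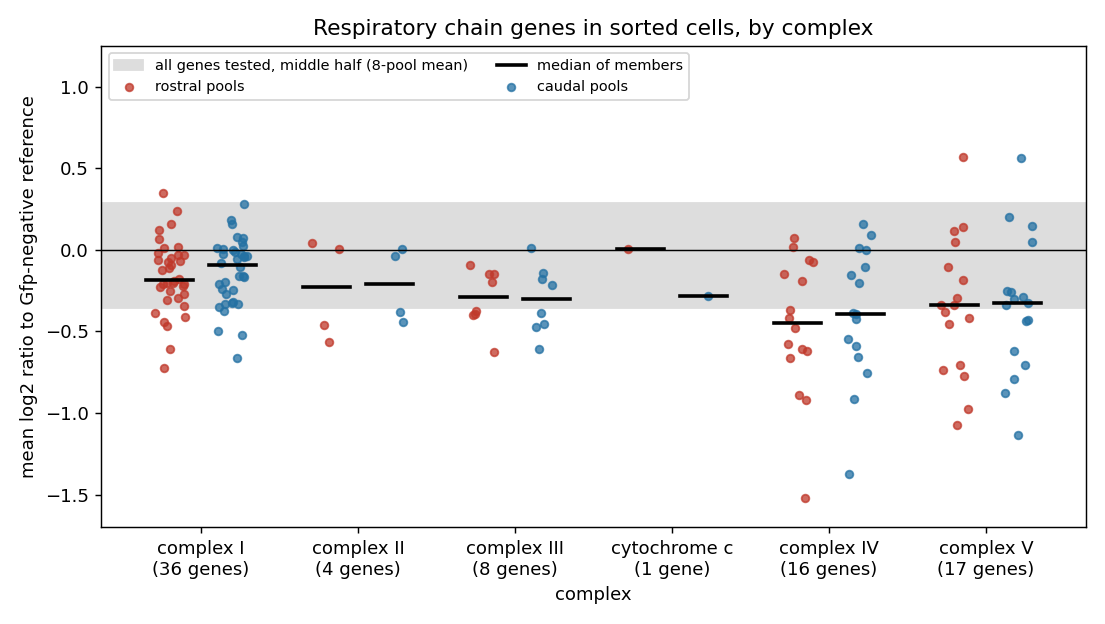
Mean log2 ratio of Gfp-positive pools to the Gfp-negative reference for each of the 82 tested members, by complex (x axis), with rostral pools (n = 4) left of caudal pools (n = 4). Each point is a gene, black bars are medians over members, and the grey band is the interquartile range of all genes tested, from -0.36 to 0.29. Complexes IV and V have the lowest points, Cox4i2 and Atp5b, and complex I lies closest to 0.

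The median log2 ratio was -0.39 over 16 tested members of complex IV, -0.35 over 17 of complex V, -0.29 over 8 of complex III, -0.23 over 4 of complex II and -0.09 over 36 of complex I. This order depended on the processing: with each array centred on its median in place of loess (median centring) complex V (-0.54) lay below complex IV (-0.44), with the mean over all probes complex II (-0.04) and not complex I (-0.18) lay nearest 0, and complex I ranged from -0.0057 with the processed signals of the scanner software to -0.23 with median centring. In complex IV 12 members were lower and 0 higher, in complex V 13 lower and 3 higher, in complex III 7 lower and 0 higher, in complex II 2 lower and 0 higher, and in complex I 19 lower and 2 higher. No test was made over members, since they share arrays and were chosen with those results known.

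Complex I takes electrons from NADH. Its 7 nuclear core subunits, which carry the flavin and the iron-sulfur clusters, had a median log2 ratio of -0.04, and 2 of them were lower: Ndufv2 (-0.22) and Ndufs3 (-0.19). Both calls were lost with the processed signals, at 0.050 (adjusted p = 0.121) for Ndufv2 and -0.018 (adjusted p = 0.443) for Ndufs3. The other core subunits were not called and lay between -0.07 in Ndufs8 and 0.13 in Ndufs1, and with the processed signals Ndufs7 (0.17) and Ndufv1 (0.12) were among those called higher. With median centring Ndufs1 (0.22) and Ndufs8 (0.27) were among those called higher, and Ndufs7 (-0.20) and Ndufv1 (-0.21) lower. Of 29 accessory subunits, 17 were lower and 2 higher, with a median of -0.17. This grouping was made with the values known.

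Ndufa13, an accessory subunit also known as Grim19, fell furthest within complex I. Its log2 ratios were -0.77, -0.80, -0.60 and -0.73 in the rostral pools and -0.80, -0.64, -0.51 and -0.69 in the caudal pools. The regions overlapped and every pool was below the reference, with a mean of -0.69 ± 0.03 (SE, n = 8) and an adjusted p of 5.79e-08. Ndufa1 (-0.55), Ndufb4 (-0.50), Ndufb11 (-0.39), Ndufc1 (-0.37), Ndufa6 (-0.35), Ndufa12 (-0.35) and Ndufs6 (-0.31) followed it. Ndufs6 was called higher with the processed signals (0.17, adjusted p = 0.00411), and under them Ndufa1 (-0.037, adjusted p = 0.287) and Ndufa12 (-0.041, adjusted p = 0.143) lost their calls. The remaining accessory subunits called lower lay between -0.27 in Ndufs5 and -0.07 in Ndufb9. Of these, Ndufb10 was called higher with the processed signals (0.07, adjusted p = 0.0193), Ndufa2, Ndufa7, Ndufb9 and Ndufc2 lost their calls with them, and Ndufa8 lost its call with median centring. The same range held Ndufa4 (-0.27), which carries a complex I symbol but is now known as a subunit of complex IV.

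Ndufb8 and Ndufs4 were the complex I genes called higher. Ndufb8, an accessory subunit of the membrane arm, had log2 ratios of 0.25, 0.45, 0.24 and 0.46 in the rostral pools and 0.28, 0.31, 0.31 and 0.23 in the caudal pools. All 8 pools were above the reference, and the mean was 0.32 ± 0.03 (SE, n = 8, adjusted p = 6.83e-06). With median centring the value of Ndufb8 was 0.03 and the call was lost (adjusted p = 0.588), while with the processed signals it was 0.74 (adjusted p = 1.45e-07), so the size of the rise depends on the processing. Ndufs4, an accessory subunit whose loss gives a Leigh-like disease in mice, had -0.05, 0.12, 0.08 and 0.13 in the rostral pools and 0.03, 0.08, 0.03 and 0.15 in the caudal pools. Its mean of 0.07 (adjusted p = 0.0459) was no longer called with the processed signals (0.017, adjusted p = 0.573), or when any 1 pool other than rostral pool 1 was left out. Its adjusted p was 0.111 without rostral pool 2, 0.0805 without rostral pool 3, 0.112 without rostral pool 4, and 0.0547, 0.0784, 0.055 and 0.123 without caudal pools 1, 2, 3 and 4.

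Complex II feeds electrons from succinate into the chain. Its membrane anchor Sdhc (-0.47) and its iron-sulfur subunit Sdhb (-0.45) were lower in the sorted cells, and the flavoprotein Sdha (-0.02) and the other anchor Sdhd (0.02) were not called. Other probes for both of the lower genes pointed the other way, at 0.33 for Sdhc and 0.24 for Sdhb, so their direction depends on the probe. With the processed signals Sdhb was at -0.06 and not called (adjusted p = 0.137), and Sdhd was called lower (-0.11, adjusted p = 0.0112), while with median centring Sdhd was called higher (0.12, adjusted p = 0.0137).

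In complex III, which hands electrons to cytochrome c, the hinge protein gene Uqcrh had log2 ratios of -0.67, -0.49, -0.72 and -0.61 in the rostral pools and -0.70, -0.51, -0.59 and -0.63 in the caudal pools. All pools were below the reference and the regions overlapped (mean -0.62 ± 0.03, SE, n = 8, adjusted p = 5.91e-08). The core proteins Uqcrc1 (-0.43) and Uqcrc2 (-0.14) and the small subunits Uqcrq (-0.43), Uqcr11 (-0.38), Uqcrb (-0.20) and Uqcr10 (-0.16) were also lower. The Rieske iron-sulfur protein gene Uqcrfs1, a catalytic subunit, was at -0.04 and was not called. Uqcrc2 was called higher with the processed signals (0.14, adjusted p = 0.00113), and under them Uqcr10 lost its call (-0.017, adjusted p = 0.785). With median centring Uqcr10 was called higher (0.19, adjusted p = 0.0162) and Uqcrfs1 lower (-0.12, adjusted p = 0.0113).

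Complex IV, which passes electrons to oxygen, has several nuclear subunits that exist as isoforms from separate genes. Cox4i2, the second isoform of subunit 4, known from lung and from pericytes of mouse brain and tied to responses to low oxygen, had the lowest ratio of all members. Its log2 ratios were -1.54, -1.44, -1.67 and -1.45 in the rostral pools and -1.56, -1.25, -1.26 and -1.43 in the caudal pools. Its mean was -1.45 ± 0.06 (SE, n = 8, adjusted p = 2.37e-08), a 2.73-fold lower signal in the sorted cells. The main isoform Cox4i1 had 0.04, 0.29, -0.16 and 0.14 in the rostral pools and 0.00, 0.08, -0.16 and 0.08 in the caudal pools, and was not called (mean 0.04, adjusted p = 0.508). With the processed signals of the scanner software Cox4i1 was called higher (0.23, adjusted p = 0.0031) and with median centring lower (-0.18, adjusted p = 0.0141). The pericyte markers Pdgfrb (-4.72), Kcnj8 (-4.34) and Col1a2 (-3.07, with rostral pool 2 at 0.10) were lower too, and so was Ndufa4l2 (-2.27), a paralog of Ndufa4 that is also known from brain pericytes. Summed over the 6 pericyte and mesenchyme markers, the signal was 2500 to 19800 in rostral pools and 1740 to 3000 in caudal pools, against 41600 to 45800 in the reference, and 1 of the 6 was not well above background in any pool. The part of pericytes in the ratio of Cox4i2 was not tested.

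Subunit 6b showed a similar split. Cox6b2, the isoform known from testis, had -1.32, -0.57, -0.86 and -0.81 in the rostral pools and -0.85, -0.76, -0.68 and -0.72 in the caudal pools. Rostral pool 1 was the lowest, and the mean of the 8 pools was -0.82 ± 0.08 (SE, adjusted p = 1.17e-05). Cox6b1, the widely expressed isoform, had -0.22, 0.10, 0.04 and 0.16 in the rostral pools and 0.00, 0.28, 0.07 and 0.00 in the caudal pools, with no call (mean 0.05, adjusted p = 0.382). It was called higher with the processed signals (0.13, adjusted p = 0.0474) and with median centring (0.38, adjusted p = 0.000273).

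For subunit 6a the order was less clear. The widely expressed Cox6a1 had -0.22, -0.15, -0.15 and -0.23 in the rostral pools and -0.35, -0.16, -0.07 and -0.23 in the caudal pools, and was called lower (mean -0.20, adjusted p = 0.000189). With the processed signals it was called higher instead (0.31, adjusted p = 1.54e-05). The heart and muscle isoform Cox6a2 had -0.81, -0.66, -0.56 and -0.47 in the rostral pools and -0.18, 0.26, -0.28 and 0.83 in the caudal pools. It was above background in 2 rostral and 3 caudal pools and was not called against the reference (mean -0.23, adjusted p = 0.0936). Without caudal pool 4 it was called lower (-0.34, adjusted p = 0.00528), and with the processed signals as well (-1.02, adjusted p = 0.00437).

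For subunit 7a, the muscle isoform Cox7a1 had -0.32, 0.21, -0.37 and 0.18 in the rostral pools and -0.18, -0.05, 0.16 and 0.13 in the caudal pools, and was not called (mean -0.03), though with median centring it was called higher (0.33, adjusted p = 0.0139). Cox7a2, the widely expressed isoform, had -0.57, -0.42, -0.36 and -0.32 in the rostral pools and -0.41, -0.37, -0.36 and -0.43 in the caudal pools. The related Cox7a2l, known to help join complexes III and IV into a supercomplex, had -0.65, -0.68, -0.72 and -0.61 in the rostral pools and -0.50, -0.58, -0.55 and -0.55 in the caudal pools. Cox7a2 and Cox7a2l were below the reference in every pool, with means of -0.40 and -0.60 and adjusted p-values of 8.16e-07 and 3.55e-09. Other probes for Cox7a2l gave -0.11 and -0.76.

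Of subunits 8, 6c and 7b only 1 gene each was tested, since Cox8b, Cox8c and Cox7b2 were too dim. Cox8a had -0.96, -0.95, -0.94 and -0.82 in the rostral pools and -0.92, -0.89, -0.81 and -1.04 in the caudal pools. Its mean was -0.92 ± 0.03 (SE, n = 8, adjusted p = 2.45e-09), while a second probe matched to it by accession gave -0.01. Cox6c had -0.63, -0.57, -0.62 and -0.48 in the rostral pools and -0.64, -0.47, -0.57 and -0.67 in the caudal pools. Cox7b had -0.24, -0.18, -0.07 and -0.11 in the rostral pools and -0.10, -0.11, -0.15 and -0.27 in the caudal pools. Both were below the reference in all pools, with means of -0.58 and -0.15. Cox5a (-0.57), Cox7c (-0.38) and Cox5b (-0.08) were lower too, as was Cox4nb (-0.52), the gene of this group that is no subunit. Cox5b was called higher with the processed signals (0.11, adjusted p = 0.00458), with the mean over all probes Cox7c was not called (-0.06, adjusted p = 0.255), and with median centring Cox4nb was not called (-0.15, adjusted p = 0.0556). Other probes for Cox7c gave 0.12 and 0.07.

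**Figure D2:**
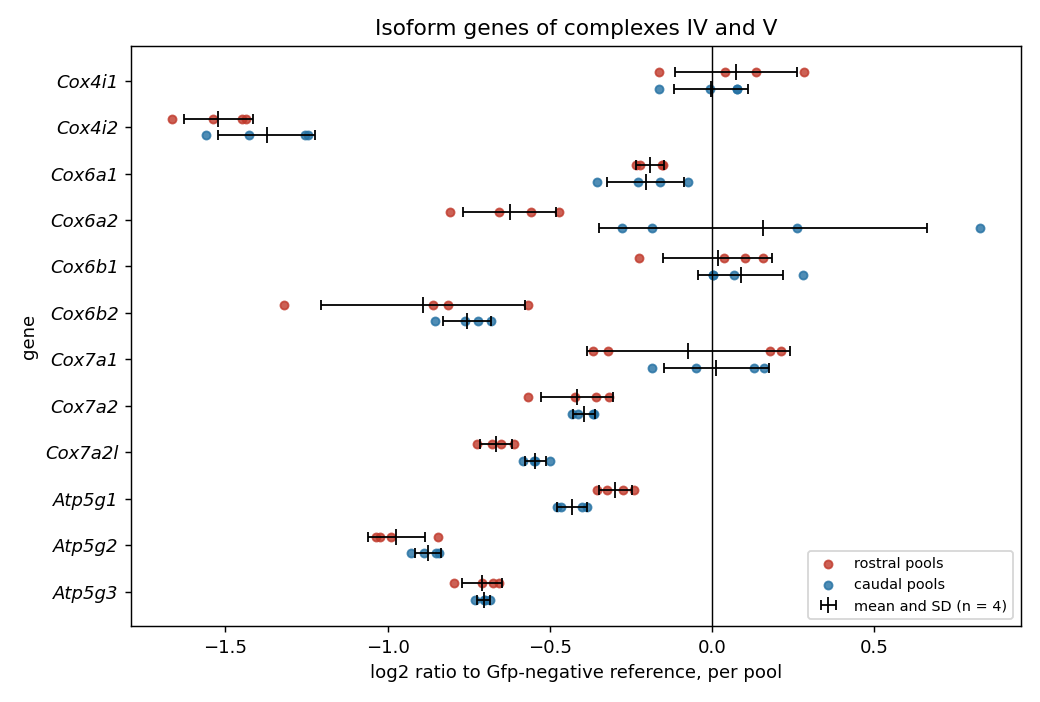
Log2 ratio to the Gfp-negative reference (x axis) of isoform genes of complexes IV and V (y axis), with rostral pools above caudal pools for each gene. Points are the 4 pools of a region and bars are the mean and SD (n = 4 each). Cox4i2 and Cox6b2 lie far left of Cox4i1 and Cox6b1, all 3 Atp5g genes lie below 0, and only for Cox6a2, Cox7a2l and Atp5g1 do the regions not overlap.

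Complex V makes ATP with a rotary motor: the F1 head holds the catalytic sites, and the ring of c subunits in the membrane turns as protons pass. Atp5b, the catalytic beta subunit of the head, had -1.08, -1.10, -1.01 and -1.10 in the rostral pools and -1.08, -1.13, -1.12 and -1.21 in the caudal pools. This was one of the tightest results among the members, at -1.11 ± 0.02 (SE, n = 8), a 2.15-fold lower signal with an adjusted p of 9.35e-11. Atp5e, the epsilon subunit of the central stalk, had -0.87, -0.72, -0.82 and -0.67 in the rostral pools and -0.86, -0.70, -0.76 and -0.85 in the caudal pools (mean -0.78, adjusted p = 8.06e-09). The alpha subunit Atp5a1 (-0.44) and the gamma subunit Atp5c1 (-0.38) were lower as well, though Atp5c1 was not called with median centring (-0.04, adjusted p = 0.548). With the processed signals the falls of Atp5b (-0.73) and Atp5e (-0.37) were smaller and still called. The delta subunit Atp5d differed from the other F1 genes: it had 0.14, 0.18, 0.20 and 0.03 in the rostral pools and -0.05, 0.25, 0.27 and 0.10 in the caudal pools, and was called higher (mean 0.14, adjusted p = 0.0108). The call of Atp5d was lost with the processed signals (0.06, adjusted p = 0.172).

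The c subunit is made from Atp5g1, Atp5g2 and Atp5g3, which are known to encode the same mature protein behind different mitochondrial import signals. Atp5g2 had -1.03, -0.99, -1.02 and -0.84 in the rostral pools and -0.84, -0.85, -0.89 and -0.93 in the caudal pools. Atp5g3 had -0.80, -0.71, -0.66 and -0.68 in the rostral pools and -0.68, -0.73, -0.70 and -0.70 in the caudal pools. Atp5g1 had -0.35, -0.27, -0.24 and -0.32 in the rostral pools and -0.40, -0.47, -0.38 and -0.48 in the caudal pools. All 3 genes were below the reference in every pool, with means of -0.92, -0.71 and -0.36 and adjusted p-values of 1.07e-09, 1.57e-09 and 1.92e-07. The order of the 3 falls compares ratios of different probes, and with the processed signals Atp5g2 was at -0.39 and Atp5g3 at -0.14, both still called, and Atp5g1 at 0.03 and not called.

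Of the 7 stalk and other membrane subunits, 5 were lower. Atp5l, subunit g, had -0.79, -0.74, -0.75 and -0.68 in the rostral pools and -0.71, -0.58, -0.55 and -0.64 in the caudal pools (mean -0.68 ± 0.02, SE, n = 8, adjusted p = 5.8e-09). Other probes for Atp5l gave smaller falls, from -0.52 to -0.25, and the mean over its probes was -0.43. Atp5k (subunit e, -0.35), Atp5j (F6, -0.32), Atp5h (d, -0.30) and Atp5f1 (b, -0.22) followed Atp5l. Atp5o, the oligomycin sensitivity protein, was not called at 0.05, though it was called lower with the processed signals (-0.08, adjusted p = 0.0398). Atp5j2, subunit f, had -0.04, 0.32, -0.07 and 0.24 in the rostral pools and 0.04, 0.46, 0.20 and 0.10 in the caudal pools, and was called higher (mean 0.16, adjusted p = 0.0346). Another probe for Atp5j2 gave -0.51, and the mean over its probes was called lower (-0.18, adjusted p = 0.0032). Its call was also lost without rostral pool 2 (adjusted p = 0.0944), rostral pool 4 (0.0878), caudal pool 2 (0.0857) or caudal pool 3 (0.0648). Atp5s, which is no subunit, showed the largest rise, with 0.85, 0.44, 0.23 and 0.75 in the rostral pools and 0.96, 0.77, 0.18 and 0.34 in the caudal pools (mean 0.57 ± 0.11, SE, n = 8, adjusted p = 0.00108). It was above the reference in every pool, but its pools spread widely. On the arrays of slide row 1 its ratio was 0.76 (adjusted p = 0.00583) and on those of row 2 it was 0.38 and not called (adjusted p = 0.0602).

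**Figure D3:**
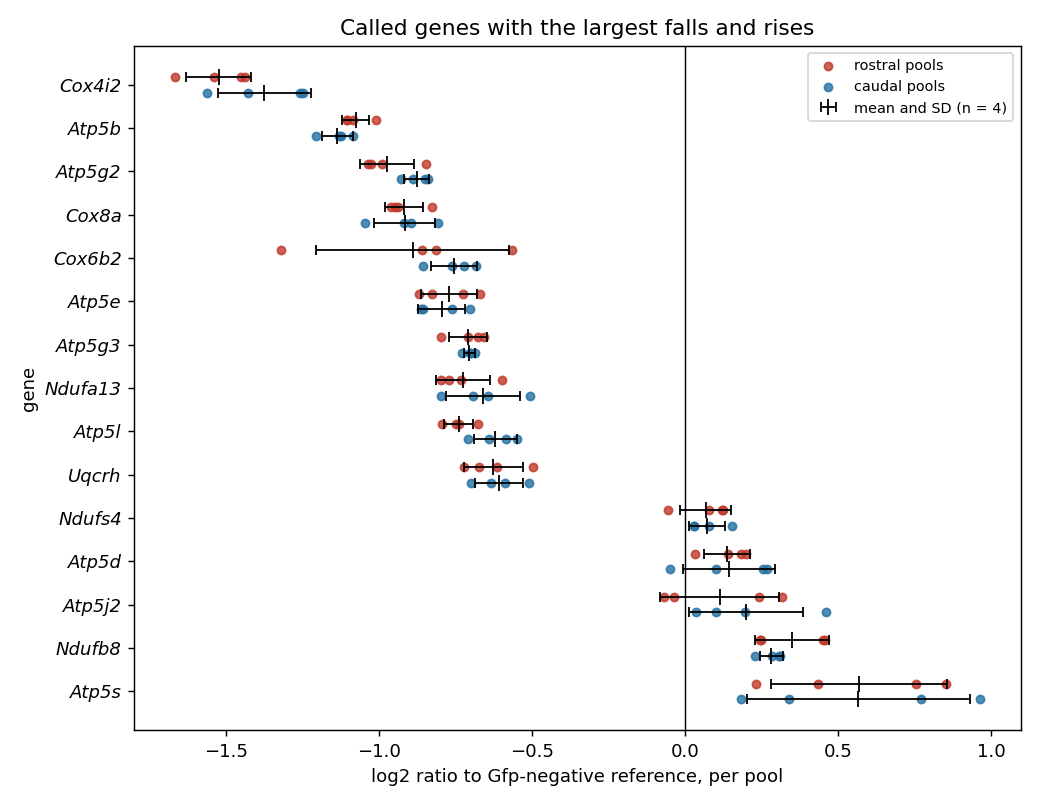
Log2 ratio to the Gfp-negative reference (x axis) of the 10 called members with the largest falls and the 5 called higher (y axis), rostral pools above caudal pools. Points are pools and bars are the mean and SD (n = 4 each). The 10 lower genes lie left of 0 in all 8 pools, and of the 5 higher genes only Ndufb8 and Atp5s lie right of 0 in all 8.

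Many nuclear respiratory chain genes are known targets of nuclear respiratory factor 1 (NRF1), of ETS factors such as GABPA, and of YY1. Promoters of RefSeq (build GRCm38.p6, 250 bases before to 50 after the start) were found for 70 of the 85 members and searched on both strands. The NRF1 letters GCGCATGCG, or CGCATGCGC on the other strand, stood in 9 of them (12.9%), against 1.95% of all 27025 genes with a promoter and 2.61% of 17492 protein-coding genes. The ETS letters CCGGAAGT stood in 5 (7.14%), against 4.31% and 5.69%. The YY1 letters AAGATGGCG stood in 8 (11.4%), against 1.64% and 2.14%. The 9 genes with the NRF1 letters were Atp5g2, Atp5k, Atp5l, Cox6a1, Cycs, Ndufa11, Ndufa8, Uqcr11 and Uqcrc1. Ndufa11 was not called (0.15), but was called higher with the processed signals (0.25, adjusted p = 0.00448) and with median centring (0.51, adjusted p = 0.000194). The others were called lower, beside 65.9% of members and 35.9% of all genes tested. For Cox6a1, Cycs and Ndufa8 this holds with the exceptions of processing given for them. These matches describe the letters of the window and are no evidence that a factor binds there.

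The promoters of the 4 members with these letters among the genes given per pool are shown to let the reader place the match, 5′ to 3′ on the gene's strand, with the NRF1 letters in capitals. All 4 genes lie on the minus strand, and were lower than the reference by 0.92, 0.68, 0.20 and 0.14 on the log2 scale in the order shown. The capitals begin 42, 241, 162 and 61 bases before the start.
Atp5g2, chr15:102670998-102671297: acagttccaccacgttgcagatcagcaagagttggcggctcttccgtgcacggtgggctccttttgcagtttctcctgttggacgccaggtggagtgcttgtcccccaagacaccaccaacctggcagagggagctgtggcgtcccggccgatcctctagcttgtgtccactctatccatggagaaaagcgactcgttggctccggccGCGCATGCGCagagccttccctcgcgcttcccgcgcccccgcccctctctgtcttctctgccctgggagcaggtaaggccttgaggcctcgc
Atp5l, chr9:44920693-44920992: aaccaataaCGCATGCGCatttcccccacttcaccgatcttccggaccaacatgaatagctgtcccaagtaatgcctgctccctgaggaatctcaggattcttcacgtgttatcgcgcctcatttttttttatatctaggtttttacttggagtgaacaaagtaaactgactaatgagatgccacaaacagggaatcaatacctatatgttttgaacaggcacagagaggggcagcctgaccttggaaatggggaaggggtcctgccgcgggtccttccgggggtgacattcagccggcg
Cox6a1, chr5:115348909-115349208: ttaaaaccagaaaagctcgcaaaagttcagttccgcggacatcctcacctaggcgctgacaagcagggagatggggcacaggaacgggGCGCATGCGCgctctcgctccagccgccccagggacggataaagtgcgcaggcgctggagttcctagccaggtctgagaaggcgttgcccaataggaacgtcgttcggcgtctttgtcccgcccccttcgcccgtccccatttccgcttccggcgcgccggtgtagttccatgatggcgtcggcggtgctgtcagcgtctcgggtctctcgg
Cycs, chr6:50566520-50566819: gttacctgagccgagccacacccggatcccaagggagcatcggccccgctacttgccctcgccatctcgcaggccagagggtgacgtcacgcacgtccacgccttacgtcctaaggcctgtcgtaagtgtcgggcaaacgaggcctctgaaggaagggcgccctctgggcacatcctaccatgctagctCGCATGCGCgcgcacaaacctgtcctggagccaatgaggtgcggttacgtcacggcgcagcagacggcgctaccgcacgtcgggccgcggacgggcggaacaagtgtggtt

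The comparison of rostral with caudal pools asked whether regional groups of dopaminergic neurons differ in these genes, and it found no call. Of 82 members tested, 0 passed an adjusted p under 0.05 with limma, while 5.73% of 17656 genes did, 562 higher (3.18%) and 450 lower (2.55%) in rostral pools. At an unadjusted p under 0.05 there were 11 members (13.4%), against 3214 genes (18.2%). The 4 rostral and 4 caudal values did not overlap for 8 members (9.76%), against 11.9% of all genes, with 2 higher in rostral pools (2.44% against 6.11% of all genes) and 6 higher in caudal pools (7.32% against 5.78%). The first were Cycs and Atp5g1, and the others were Cox6a2, Cox7a2l, Ndufa2, Ndufb11, Ndufv3 and Sdhc. The median difference was -0.01 and the median SE 0.0628 on the log2 scale. For 79 members the 95% interval of the difference lay within 0.5 of 0, so a larger regional difference lay outside the interval for these, and the exceptions were Cox6a2, Cox6b2 and Ndufv3.

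**Figure D4:**
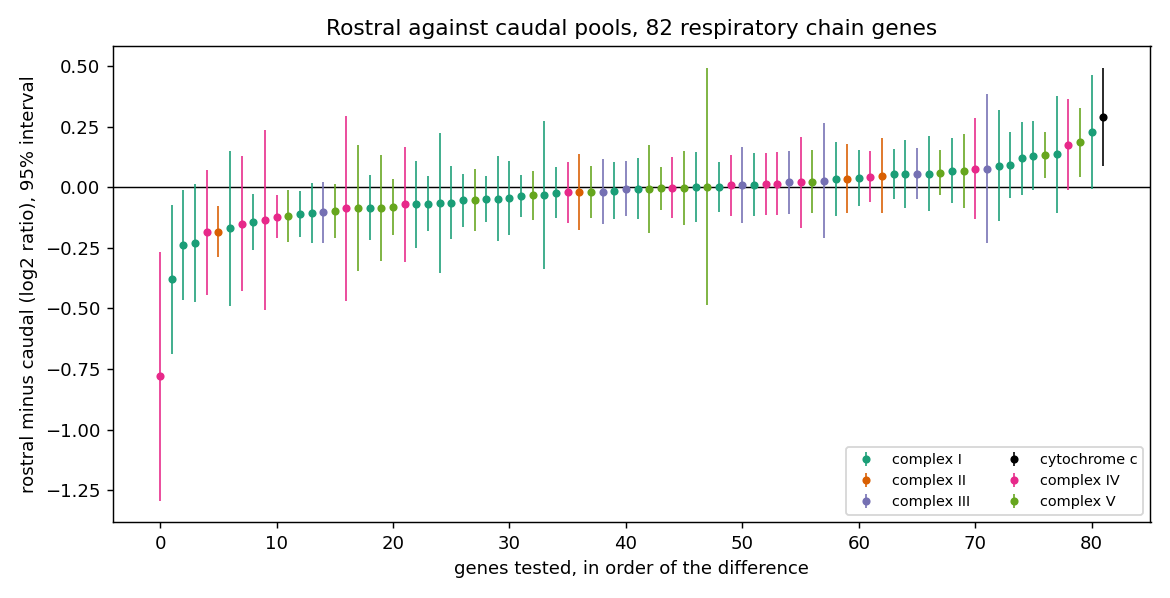
Difference of rostral minus caudal pools in log2 ratio (y axis, n = 4 each) for the 82 tested members, in order of the difference (x axis), coloured by complex. Points are estimates and lines are 95% intervals. Most points lie within 0.25 of 0, and Cox6a2, at the far left, is the lowest with -0.78.

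Cycs, the electron carrier between complexes III and IV and a trigger of apoptosis when it leaves mitochondria, had the largest positive difference. Its log2 ratios were -0.21, 0.17, -0.06 and 0.12 in the rostral pools and -0.25, -0.28, -0.22 and -0.39 in the caudal pools. Every rostral pool lay above every caudal pool, by 0.29 on average with a 95% interval of 0.09 to 0.49, but the adjusted p was 0.108. Without rostral pool 1 the difference was 0.36 and passed (adjusted p = 0.0386). Of the other probes for Cycs, one gave 0.20 in rostral and -0.22 in caudal pools, and one gave -0.45 in rostral and -0.44 in caudal pools. Against the reference Cycs was called lower (-0.14, adjusted p = 0.0209), a call that median centring ended (0.08, adjusted p = 0.222).

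Sdhc had the smallest adjusted p of the regional comparison, 0.0549. Its log2 ratios were -0.57, -0.51, -0.65 and -0.52 in the rostral pools and -0.36, -0.32, -0.42 and -0.42 in the caudal pools, a difference of -0.18 with a 95% interval of -0.29 to -0.08. Its other probe, which had the opposite sign against the reference, gave 0.26 in rostral and 0.40 in caudal pools.

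The next 4 members by p were Cox6a2 (-0.78, adjusted p = 0.0883), Atp5g1 (0.13, adjusted p = 0.109), Cox7a2l (-0.12, adjusted p = 0.121) and Atp5sl (0.19, adjusted p = 0.147), and none passed. Atp5sl had -0.05, -0.17, -0.15 and -0.03 in the rostral pools and -0.17, -0.35, -0.30 and -0.34 in the caudal pools, which just overlapped. The value of Cox6a2 includes pools in which its probe was not well above background, and it moved to -1.31 with a normexp offset of 0 and -1.76 with the processed signals, so its size is uncertain. Ndufv3, a small subunit of the NADH-binding module, differed by -0.38 but did not pass (adjusted p = 0.168), with -0.34, -0.07, -0.07 and -0.42 in rostral pools and 0.21, 0.09, 0.00 and 0.32 in caudal pools. Its other probe gave -0.23 in both regions.

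How far the falls against the reference depend on the processing was read from 7 settings that change the background correction, the normalization or the probes used. In all 7, 32 members (39.0%) were called lower, against 23.6% of all genes, and 1 member (1.22%), Atp5s, was called higher, against 28.3% of all genes. The 32 were 10 of complex V, 8 of complex IV, 8 of complex I, 5 of complex III and 1 of complex II, and they included Cox4i2 (-1.496 to -1.09), Atp5b (-1.40 to -0.73), Atp5g2 (-1.23 to -0.39), Cox8a (-1.22 to -0.47) and Ndufa13 (-0.996 to -0.35). With the processed signals of the scanner software, 43 members were lower and 16 higher, and all genes split into 32.4% lower and 39.5% higher. Of the 54 members called lower, 38 kept that call with these signals, 11 lost it and 5 were called higher (Cox5b, Cox6a1, Ndufb10, Ndufs6 and Uqcrc2). With each array centred on its median, 56 members were lower and 14 higher, beside 27.5% of all genes lower and 44.9% higher. The median of all genes then stood at 0.13, and that of the members at -0.31. Of the 54, 48 were still called lower, 5 were not called and Uqcr10 was called higher.

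**Figure D5:**
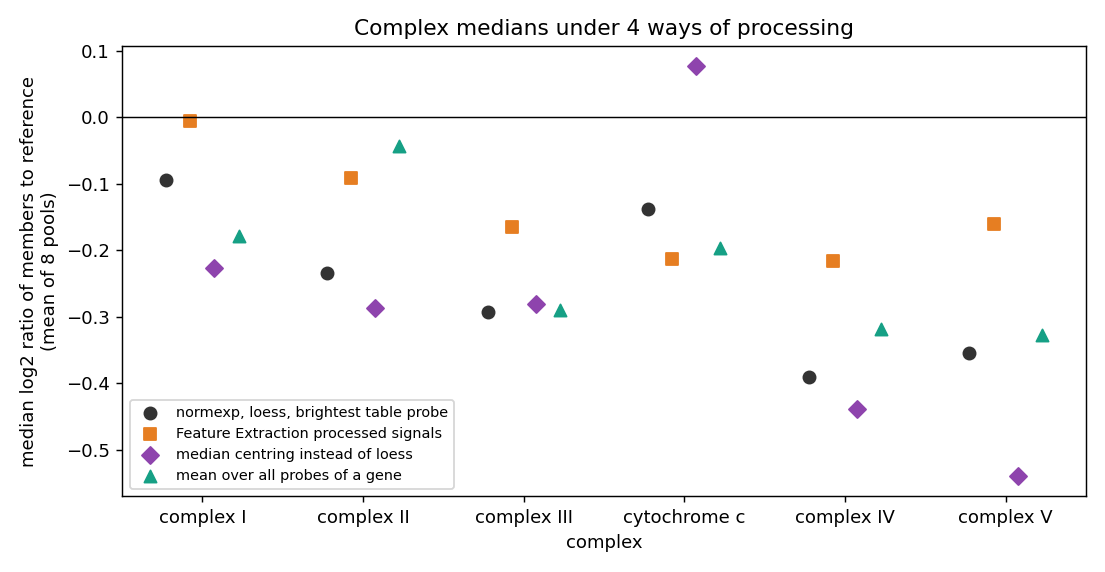
Median log2 ratio of members to the reference, as the mean of 8 pools (y axis), for each complex (x axis) under 4 ways of processing, 1 symbol each. Complexes II, III, IV and V stay below 0 under all 4, complex I comes to -0.01 with the processed signals, and Cycs turns to 0.08 with median centring.

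Probes also limited single genes. Of the 85 members, 26 had 37 other probes, and for 12 of these members a probe differed by over 0.3 on the log2 scale. For 4 members, Sdhb, Sdhc, Cox7c and Atp5j2, another probe had the opposite sign with both values over 0.1 in size. For Ndufa5, at 0.09 with the probe used, another probe gave -0.54. Among 21 members called lower that had other probes, all other probes lay below 0 for 18.

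Related genes outside the symbol rule were read against the same shares of all genes, 35.9% lower and 34.2% higher. Of 18 measured subunits and related genes that other symbols name, 10 were lower and 6 higher (median -0.17). The 10 include Atpif1 (-0.54), an inhibitor of ATP synthase and no subunit, and Ndufa4l2 (-2.27), the paralog of Ndufa4. Mitochondrial DNA encodes 12 of them, of which 6 were lower and 4 higher with a median of -0.05. The mitochondrial subunits of complex IV were lower, COX2, as the files name them, by most (rostral mean -1.79 ± 0.02, caudal mean -1.93 ± 0.19, SD, n = 4 each), followed by COX1 (-1.41) and COX3 (-1.01), as was CYTB of complex III (-1.03). Of the complex I subunits of mitochondrial DNA, ND5 was higher (1.30), as were ND4L (0.59), ND6 (0.36) and ND2 (0.22), while ND3 (-0.73) and ND4 (-0.20) were lower. Unlike the members, the mitochondrial genes were read with 1 probe each and in the main setting only. A dye effect that differs between probes cannot be told apart from these ratios. Cyc1, the nuclear cytochrome c1 of complex III, was higher (0.51), unlike the 7 complex III members that were lower. By limma 0 of the 18 differed between regions, also at an unadjusted p under 0.05. In rostral minus caudal pools 11 of the 12 mitochondrial genes were above 0, beside 9044 of 17656 genes. Caudal pool 2 had the lowest caudal value for each mitochondrial gene. For COX2 it had -2.16, against -1.99 to -1.71 in the other caudal pools, and for ND5 0.77, against 1.16 to 1.46. The part of this pool in the count was not tested.

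Assembly factors, which build the complexes without staying in them, were split: 14 were higher, 10 lower and 20 not called of 44 tested, with a median of 0.02. Those with the smallest p were 2310016M24Rik (-0.38), Cox19 (0.42), Foxred1 (0.44) and Cox11 (-0.41). AI462493 (-0.38, adjusted p = 0.00957) and Fam36a (-0.30, adjusted p = 0.0373) were lower in rostral than in caudal pools, 2 of 44 beside 2.55% of all genes. Of 15 regulators of mitochondrial biogenesis, 6 were lower and 1 higher (median -0.13), led by Esrra (-0.51), Yy1 (-0.36), Polg (-0.67) and Gabpa (-0.48). Of 16 genes of the tricarboxylic acid cycle and pyruvate oxidation, 6 were higher and 4 lower (median 0.04), with Mdh2 at -0.63, Dlst at 0.39, Idh3g at 0.24 and Idh3a at -0.34.

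Of 17 genes of glycolysis, 9 were lower and 2 higher (median -0.13). Aldoc, an aldolase known from radial glia and astrocytes, was at -3.45, Gapdh at -1.33, Ldhb at -0.51 and Eno1 at -0.44. Ldhb was also lower in rostral than in caudal pools (-0.21, adjusted p = 0.0209). Of 18 genes of the mitochondrial outer membrane, protein import and carriers, 8 were lower and 6 higher (median -0.06), led by the ADP/ATP carriers Slc25a4 (-0.66) and Slc25a5 (-0.997), the pore protein Vdac1 (-0.53) and the import receptor Tomm20 (-0.40).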

How the data were processed

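Sorted Gfp-positive pools (4 rostral, 4 caudal) were read against a Gfp-negative reference on 8 two-colour Agilent arrays, all on 1 slide and in 1 scan, in 2 slide rows. The deposited scanner files hold spot intensity values from Agilent Feature Extraction, version 10.7.3.1 as the file headers have it: median intensities of spot and local background per channel, not normalized, and processed intensities that the software had background-corrected and dye-normalized. Per the submitters' processing notes RMA was also used, in a role not given in the sources used here. The deposited series table supplied gene names, and its 8 value columns match no sample label and were not used. Members and lists were chosen with earlier results of these data known.

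Background was corrected with normexp (offset 50) and arrays were loess-normalized singly, with control and outlier spots at weight 0. Of 55681 probes, 25517 were named from that annotation and 405 by accession through RefSeq, and the brightest table probe stood for a gene. Log2 ratios of Cy3 over Cy5 were computed from the deposited intensity values and fitted with limma 3.58.1 in R 4.3.3 (lmFit, eBayes with intensity trend), with files read by the data.table package (version 1.17.8). p-values were 2-sided and adjusted by Benjamini-Hochberg over all genes, with a threshold of 0.05. A gene was tested if well above background on at least 4 of 8 arrays in either channel, or in the sample channel for rostral against caudal. The reference is treated as a single control without a spread of its own; whether 1 pool or several were made is not given. Precision is limited by there being 8 arrays. The share of probes well above background ran from 62.5% to 70.4% (Cy3) and from 54.0% to 63.5% (Cy5). The fit of rostral against caudal was tested on simulated data with independent noise. The comparison with the reference was not tested in this way.

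Full values were given for the 10 members with the largest called rises and falls, the 6 with the smallest regional p and the isoform sets. For other lists the 4 with the smallest p were given or, for markers, the 3 with the largest ratios. The other subunits and related genes outside the rule, Ndufv3 and the collagen genes were named after their values were seen. Alternatives changed the background, normalization, filter, probe choice, trend, slide row and replicate block, or left out 1 pool; 2 were added after the data were seen, the mean over all probes and the members without 3 genes that are no subunits.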

Additional observations from a re-analysis of the deposited data

Results flagged for a closer look

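Cox8a in rostral pool 4 stood apart from its group, with a log2 ratio of -0.82 against -0.96 to -0.94 in the other 3 rostral pools. The gap was 0.837 of the range of the 4 pools. Among 56 groups of 4 pools examined this was the 1 that passed, and chance gives about 5% of groups.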

How the results depend on the processing

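The count of 54 members lower than the reference stayed within 1.5 times under every alternative run, from 43 to 57. The share of all genes called lower ran from 27.5% to 37.2%. No member was called between regions except Cycs without rostral replicate 1, which gave 1 member higher in rostral pools (4.98% of all genes were called then). The count of 5 higher members moved to 16 with the processed signals and 14 with median centring, beside 39.5% and 44.9% of all genes. It moved to 3 without the intensity trend (34.2% of all genes), 2 within slide row 1 (25.3%) and 1 within slide row 2 (25.7%). With 1 pool left out it was 3 to 7, beside 32.4% to 33.1% of all genes. The member median of -0.21 moved to -0.086 with the processed signals (all genes 0.06) and -0.31 with median centring (all genes 0.13). Of called members, the call turned for Cox6a1 (0.31), Ndufs6 (0.17), Uqcrc2 (0.14), Cox5b (0.11) and Ndufb10 (0.072) with the processed signals, for Uqcr10 (0.19) with median centring and for Atp5j2 (-0.18) with the mean over all probes. Calls were lost with a turned sign for Atp5g1 (0.030), Ndufv2 (0.050) and Ndufb9 (0.063) with the processed signals and Cycs (0.077) and Ndufs4 (-0.0066) with median centring. Members with no call turned sign too, among them Cox4i1 (-0.18) and Cox7a1 (0.33) with median centring and Ndufa5 (-0.23) with the mean over all probes. The cause was not tested.

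Same-numbered rostral and caudal pools did not deviate together (correlations 0.022, -0.012, -0.058 and -0.015 over genes). Whether same-numbered pools came from the same embryos cannot be told from these correlations. With the replicate block, 620 genes instead of 1012 differed between regions, 0 of them members, and 53 of 54 lower members were kept. Of all genes, 900 differed between regions with slide row as a block, 0 within row 1, 108 within row 2, 743 with median centring, 705 without the trend, and 614 to 880 with 1 pool left out. Dyes were not swapped, so small ratios to the reference have no check against a dye effect.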
